A study of Mus musculus with 14 samples.

Results

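The BCL2 family decides whether mitochondria release the proteins that start cell death, and its survival and death genes are described here in Tet2-deficient blood progenitors. Members were all probe sets that the platform annotation gives to Bcl2, Bcl2l1, Mcl1, Bcl2l11, Bax, Bak1, Bid, Bad, Bbc3 and Bmf. This gave 31 of the 45101 probe sets of the array, for 9 of the 10 genes, and Bax was not analysed here. Bcl2 has 5 probe sets, Bcl2l1 4, Mcl1 6, Bcl2l11 5, Bak1 2, Bid 3, Bad 2, Bbc3 1 and Bmf 3. Of these, 28 lay above the floor in at least 1 group and 25 on all arrays. The floor is the highest intensity among bacterial control probe sets on an array, between 20.8 and 27.8. The 3 below it, 1426050_at of Bcl2l1, 1426334_a_at of Bcl2l11 and 1422995_at of Bmf, were below it on all arrays, so they hold no level to compare.

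RNA came from bone marrow cells of B6/129 mice that carried Mx and had all been injected with pIC, either Tet2+/+ Mx+ (WT) or their Tet-/-Mx+ littermates (KO). Mx marks the interferon-inducible promoter that commonly drives Cre in blood and other cells, and pIC, a double-stranded RNA, switches it on, so the WT groups share the injection. LSK cells lack lineage markers, carry Sca1 and c-Kit and include the blood stem cells. CMP and GMP, the common myeloid and granulocyte-macrophage progenitors, have c-Kit and CD34, lack Sca1 and differ by a low or high Fc gamma receptor. LSK and CMP were sorted 4 weeks after deletion, while for GMP no time is labelled. Replated cells are CD150+ LSK of KO mice carried through 5 platings in culture, and no replated WT cells were analysed here. The 7 groups had 2 arrays each, 14 in all. Whether the paired arrays of a group stand for different animals or cultures is not labelled, so p-values measure only the spread between these samples, which may be technical.

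Values are linear intensities of probe sets (array medians from 31.2 to 33.0), and differences are on the log2 scale. Tet2 itself ranged from 454 to 2045 on the 6 sorted WT arrays and from 855 to 2376 on the 6 sorted KO arrays at the brighter of its 2 probe sets. The 2 replated KO arrays were at 1786 and 1823 there. At the dimmer set Tet2 ranged from 65.9 to 209 on sorted WT arrays and from 17.0 to 175 on sorted KO arrays. The 2 replated KO arrays, at 780 and 796, lay above all sorted arrays of both genotypes at that set. As the position of these probes relative to the deletion was not analysed here, Tet2 gives no check of genotype in sorted or replated cells. Of 7 sort markers 6 were measured, and Fcgr3 and Kit are given at the RNA level. Fcgr3, an Fc gamma receptor gene, averaged 650.4 in WT CMP and 4636 in WT GMP. Kit, the receptor used in every sort, had group means from 1372 in WT GMP to 5230.3 in replated cells. From WT CMP to WT GMP limma called 1 of the 6 higher and 1 lower, so these values are no full check of the sorts. Xist, the RNA that silences one X chromosome in female cells, lay between 4980.1 and 6634 on sorted KO arrays and between 18.7 and 29.7 on sorted WT arrays, with the 2 replated arrays at 18.4 and 21.9. Sex-linked expression and genotype therefore cannot be told apart in the sorted cells, nor sex-linked expression and replating between replated and sorted KO cells.

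Members fall into 3 roles. Bcl2, Bcl2l1 (which encodes BCL-XL) and Mcl1 encode the survival proteins, which hold back the pore formers. Bak1, like Bax, encodes a pore former of the outer mitochondrial membrane. Bcl2l11 (BIM), Bid, Bad, Bbc3 (PUMA) and Bmf encode BH3-only proteins, which sense stress and bind the survival proteins, and BIM and BID can also switch on the pore formers. In assembly GRCm38.p6 Bcl2 spans chr1:106538176-106714290, Bcl2l1 chr2:152758732-152833803, Mcl1 chr3:95656944-95663179, Bak1 chr17:27019812-27028627 and Bmf chr2:118528757-118549686. In blood, MCL1 is known to be needed by stem and progenitor cells, and BIM limits the number of blood cells.

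Upstream sequence is shown for the genes with a forkhead match, and for Bcl2 and Bmf, a survival gene and a death gene that both rose after replating against every sorted KO population at 1 or more probe sets. RefSeq promoter windows of assembly GRCm38.p6 were matched by symbol for 9 genes, 17 windows of the 250 bases before an annotated start. FOXO3, a forkhead factor, is known to switch on Bcl2l11 and Bbc3 when growth factors are lacking, so the forkhead core TGTTTAC was searched on both strands. It was in 1 window of each of these genes and in no other member window, against 3.17% of all 32851 windows of that length. The matches stand 227 to 221 bases before a start of Bcl2l11 and 167 to 161 bases before a start of Bbc3 that lies inside the span of the gene. In the 30-base stretches, chr2:128125800-128125829 for Bcl2l11 and chr7:16310083-16310112 for Bbc3, both on the plus strand, capitals mark the forkhead core or its reverse complement.
Bcl2l11: aagacactaggGTAAACAcgccggggtggg
Bbc3: tctggcgggttTGTTTACaaacaatggggt
The window of Bcl2 is chr1:106714291-106714540, and of the 3 Bmf windows the one next to the end of the gene's span is printed, chr2:118549687-118549936. Both are on the minus strand, and capitals mark the GC box GGGCGG on either strand.
Bcl2: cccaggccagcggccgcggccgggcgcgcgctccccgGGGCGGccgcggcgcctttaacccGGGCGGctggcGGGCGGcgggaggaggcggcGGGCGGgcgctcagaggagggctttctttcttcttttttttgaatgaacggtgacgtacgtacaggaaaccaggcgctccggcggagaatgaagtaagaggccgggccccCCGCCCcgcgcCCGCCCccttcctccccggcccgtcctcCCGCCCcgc
Bmf: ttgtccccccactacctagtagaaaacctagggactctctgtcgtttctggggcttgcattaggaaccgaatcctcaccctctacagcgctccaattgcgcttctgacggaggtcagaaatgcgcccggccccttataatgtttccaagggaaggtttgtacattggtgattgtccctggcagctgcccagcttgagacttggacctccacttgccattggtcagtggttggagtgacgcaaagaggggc
The Bcl2 window held 7 GC boxes and 74.8% G and C, and the printed Bmf window held 54% G and C, with no GC box in any of the 3 Bmf windows. GC boxes were in 9 of the 17 member windows and in 32.7% of all windows. The E-box CACGTG was in 1 member window (of Bbc3) and in 6.02% of all windows, and the GATA letters AGATAA in 1 (of Bcl2l1) and in 9.99%. The STAT letters TTCNNNGAA were in 0 member windows and in 7.02% of all windows. A match is a description of the letters, not a site of binding.

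Bcl2 had its highest group mean after replating at 4 of 5 probe sets and, among sorted cells, in WT CMP at all sets but 1443837_x_at. At probe set 1437122_at, its brightest, intensities were 929.6 and 897 in WT LSK, 550.4 and 717 in KO LSK, 1515 and 1665 in WT CMP, 1344 and 1097 in KO CMP, 967 and 584 in WT GMP, 813 and 1043 in KO GMP and 2340.1 and 1904 in replated cells. The order from the top was replated, WT CMP, KO CMP, KO GMP, WT LSK, WT GMP and KO LSK; no neighbouring pair among the first 4 groups overlapped, and from KO GMP down each neighbouring pair overlapped. Probe set 1422938_at ranked WT CMP (1749 and 1645) beside replated cells (1675 and 1463), whose arrays overlapped. Probe set 1440770_at set the replated arrays furthest apart, at 905 and 753 against 76.4 to 246.1 on the 12 sorted arrays. At 1457687_at the replated arrays were at 2309.6 and 2196 and the sorted ones between 401 and 1360, and at 1443837_x_at, a type of probe set that can hybridise with related transcripts, they were at 483 and 476 against 59.5 to 312.4. At 1443837_x_at KO CMP led the sorted groups through 1 array (312.4, beside 78.4), and WT CMP (mean 118.7) lay below WT LSK (126.2). Across the 14 arrays the log2 values of 1437122_at correlated with those of the other 4 sets at Pearson r between 0.667 and 0.896, as a description, since all come from the same arrays.

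Bcl2l1 had its highest group mean after replating at its 3 probe sets above the floor, and at the brightest, 1420888_at, the means of the sorted groups ran LSK, CMP, GMP from high to low in both genotypes. At 1420888_at intensities were 277 and 290.2 in WT LSK, 231 and 260.4 in KO LSK, 232 and 199 in WT CMP, 199 and 245 in KO CMP, 143 and 119 in WT GMP, 94.3 and 134 in KO GMP and 381 and 382 in replated cells. Replated, WT LSK and KO LSK did not overlap with one another, KO LSK, KO CMP and WT CMP did with their neighbours, and both GMP groups lay below all other arrays. The dimmer 1426191_a_at and 1420887_a_at spread more between arrays of a group, from 54.6 to 443.8 and from 34.3 to 180.9 over all arrays, and did not keep that order: KO CMP had a higher mean than KO LSK at both, and WT GMP a higher mean than WT CMP at 1426191_a_at.

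Mcl1 kept nearly the same level in all groups at its brightest probe set. At 1416880_at it was 4016 and 4339 in WT LSK, 4233 and 4134 in KO LSK, 3805 and 3631 in WT CMP, 3692 and 3916 in KO CMP, 3315 and 3637 in WT GMP, 3365 and 3199 in KO GMP and 4392 and 4079 in replated cells. The highest and lowest group means differed 1.29-fold, the narrowest range among the members' brightest probe sets. The dimmest set, 1416881_at, had a different pattern, with 1571 and 1642 in replated cells against 549.9 to 828.9 on the sorted arrays. Its correlation with 1416880_at over the 14 arrays was 0.313, while that of 1448503_at was 0.464 and those of 1437527_x_at, 1456243_x_at and 1456381_x_at were between 0.827 and 0.925. The positions of the probe sets in the transcripts were not analysed here.

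**Figure D1:**
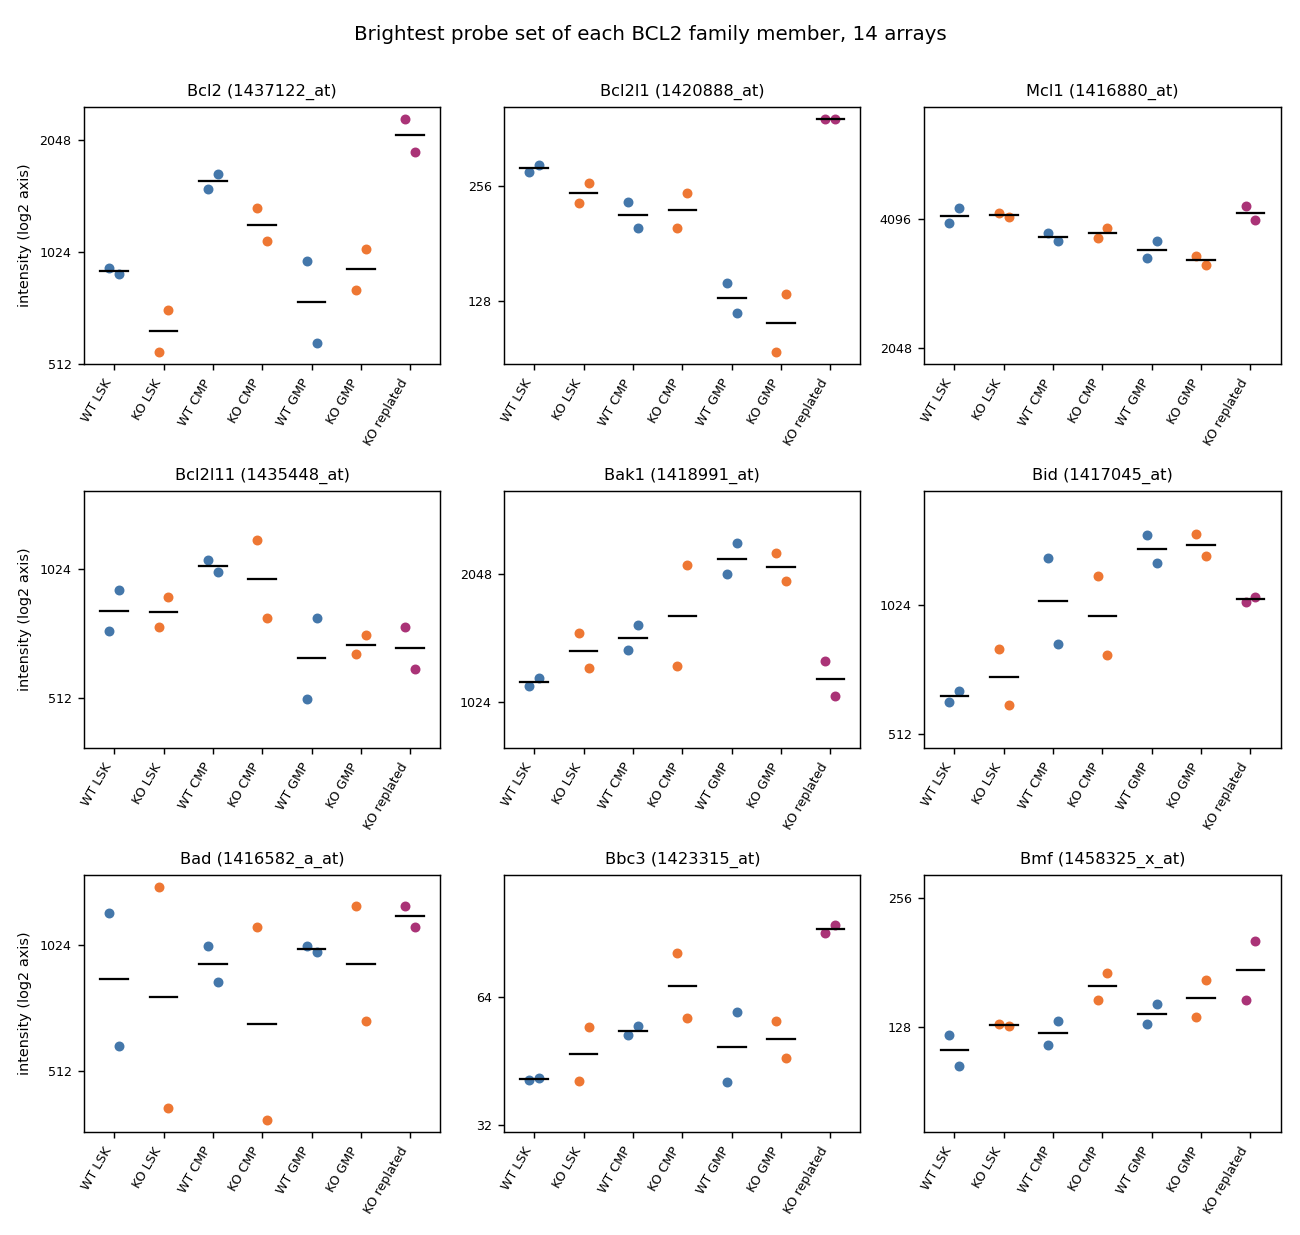
Intensity (log2 axis) of the brightest probe set of each of 9 BCL2 family genes on 14 arrays; points are arrays, bars are group means of log2 values, blue is WT, orange KO and purple replated KO. Bcl2 reached 2340.1 and 1904 in replated cells, Mcl1 stayed between 3199 and 4392, and Bad spread from 391 to 1413 with wide gaps between arrays of a group.

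Among the death genes, Bak1 and Bid were highest in GMP. Bak1 at 1418991_at was 1119.9 and 1164 in WT LSK, 1487 and 1231 in KO LSK, 1354 and 1556 in WT CMP, 1245 and 2142 in KO CMP, 2038 and 2416 in WT GMP, 2288 and 1969 in KO GMP and 1276 and 1058 in replated cells. The GMP arrays lay above all others but 1 KO CMP array, and every neighbouring pair of groups in the order overlapped. Bid, whose protein carries the death receptor signal to mitochondria, was at 1417045_at 607 and 646 in WT LSK, 809 and 596 in KO LSK, 1318 and 828 in WT CMP, 1198 and 780.2 in KO CMP, 1489.9 and 1282 in WT GMP, 1504 and 1332 in KO GMP and 1042 and 1071 in replated cells. Its LSK arrays were low, and the CMP arrays of each genotype were far apart, spanning most of the gap between LSK and GMP. The dimmer sets, 1425716_s_at of Bak1 and 1448560_at and 1447873_x_at of Bid, correlated with the brightest set of their gene at r between 0.715 and 0.850 over the 14 arrays.

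Bcl2l11 gave different patterns at its 2 bright probe sets. At 1435448_at it was 732 and 914 in WT LSK, 751 and 882 in KO LSK, 1078 and 1007 in WT CMP, 1197 and 789 in KO CMP, 509 and 787 in WT GMP, 647 and 717 in KO GMP and 751 and 597 in replated cells. At 1456005_a_at WT LSK had the highest mean, from 794 and 628, and KO LSK the lowest, from 361 and 316, while the other arrays lay between 287 and 703. The correlation between the 2 sets was -0.0639 over the 14 arrays. The dimmer 1435449_at and 1456006_at reached at most 63.6 and 42.1 and were above the floor on 11 and 9 arrays.

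Bad, Bbc3 and Bmf had small group differences or a wide spread in sorted cells. Bad at 1416582_a_at was 1221 and 589 in WT LSK and 1413 and 419 in KO LSK, so the spread within KO LSK was nearly as wide as that over all 14 arrays, from 391 to 1413. At this set only the replated group, at 1272 and 1131, stood clear of its neighbour in the order. At the dimmer 1416583_at Bad ranged from 83.5 to 548.7, and the replated arrays, at 456 and 367, overlapped with WT GMP, at 378 and 421. There only WT GMP stood clear of the group below it, KO GMP, at 317 and 292. The Bad sets correlated at r 0.408 over the 14 arrays. Bbc3 at 1423315_at lay between 40.5 and 80.9 on the sorted arrays and at 90.4 and 94 in replated cells, above all sorted arrays. Bmf at 1454880_s_at lay between 41.8 and 78.3 on the sorted arrays and at 265 and 187 in replated cells. At its brighter set 1458325_x_at, of the type open to related transcripts, Bmf ranged from 103.5 to 203.6 and every neighbouring pair of groups overlapped. Which transcripts the probes of Bmf 1454880_s_at and of Bak1 1425716_s_at match was not analysed here.

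The first comparison asked what Tet2 loss changed, setting KO against WT arrays within each sorted population. None of the 31 member probe sets passed limma's test at an adjusted p below 0.05, averaged over LSK, CMP and GMP or in any of the 3. Over all 45037 probe sets tested, 0.249% passed in the average, 0.295% in LSK, 0.0844% in CMP and 0.0711% in GMP. At an unadjusted p below 0.05 there were 1 member probe set in the average, 3 in LSK, 0 in CMP and 1 in GMP. Here and below, the share of all probe sets at that unadjusted cutoff was not counted, so such counts have no background beside them. The median member difference was -0.00 in the average, -0.01 in LSK, 0.03 in CMP and -0.06 in GMP, beside 0.02, 0.01, 0.03 and 0.01 over all probe sets.

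For the brightest probe set of each gene the averaged KO minus WT difference lay between -0.24 (Bad) and 0.23 (Bmf), with adjusted p between 0.607 and 0.999. The precision differed between genes. For Mcl1 the 95% interval of the averaged KO to WT ratio ran from 0.888 to 1.10, and for Bcl2l1 from 0.766 to 1.09. For Bcl2 it ran from 0.684 to 1.09, for Bcl2l11 from 0.787 to 1.27 and for Bad from 0.468 to 1.52. Within single populations the intervals were wider, so that for Bcl2 in LSK, where the difference was -0.54 ± 0.26 (SE), the interval ran from 0.459 to 1.03.

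The lowest member p-values belonged to dimmer probe sets of Bcl2l11, and none passed. At 1435449_at KO LSK arrays read 17.1 and 26.1 and WT LSK arrays 63.6 and 45, a difference of -1.34 ± 0.31 with an adjusted p of 0.154. The KO array at 17.1 lay below its floor of 22.3, so the size of this difference is uncertain. Averaged over LSK, CMP and GMP the same set differed by -0.70 ± 0.18 (adjusted p = 0.248). At 1456005_a_at, whose arrays are given above, the difference was -1.06 ± 0.32 (adjusted p = 0.282). The brightest Bcl2l11 set, 1435448_at, differed by -0.01 ± 0.26. The WT and KO LSK arrays were apart at both dimmer sets, as at 33.7% of all probe sets in LSK, overlapped at the brightest, and none of the 3 sets passed. Of 10 B cell markers 9 were measured, and their summed intensity was 7636 to 11448 in WT LSK and 2749.6 to 3534 in KO LSK arrays. In LSK 1 of these 9 was called lower and 1 higher by limma, with a median KO minus WT difference of -1.50. In the average 1 of the 9 was called higher and 0 lower. Of 7 measured monocyte and macrophage markers 0 were called in LSK, with a median KO minus WT difference of 1.31. They summed to 10108 to 10664 in KO GMP and 6543 to 7408 in WT GMP. In the average 1 of them and 2 of 11 mast and basophil markers were called higher by limma. The median difference of the 11 mast and basophil markers there was -0.10, and only 4 of the 11 lay above 0. The part of these lists in these values was not tested. Bid at 1448560_at differed by 0.78 ± 0.33 in LSK (adjusted p = 0.487) and Mcl1 at 1416881_at by 0.37 ± 0.16 in GMP (adjusted p = 1), both at an unadjusted p below 0.05.

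Whether the KO effect differed between populations was tested with interaction terms. Of 93 such tests, 3 per member probe set, 0 passed in limma, 4 had an unadjusted p below 0.05, and the lowest adjusted p was 0.610. Over all probe sets 0% passed for LSK against CMP and for GMP against CMP, and 0.00888% for LSK against GMP.

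**Figure D2:**
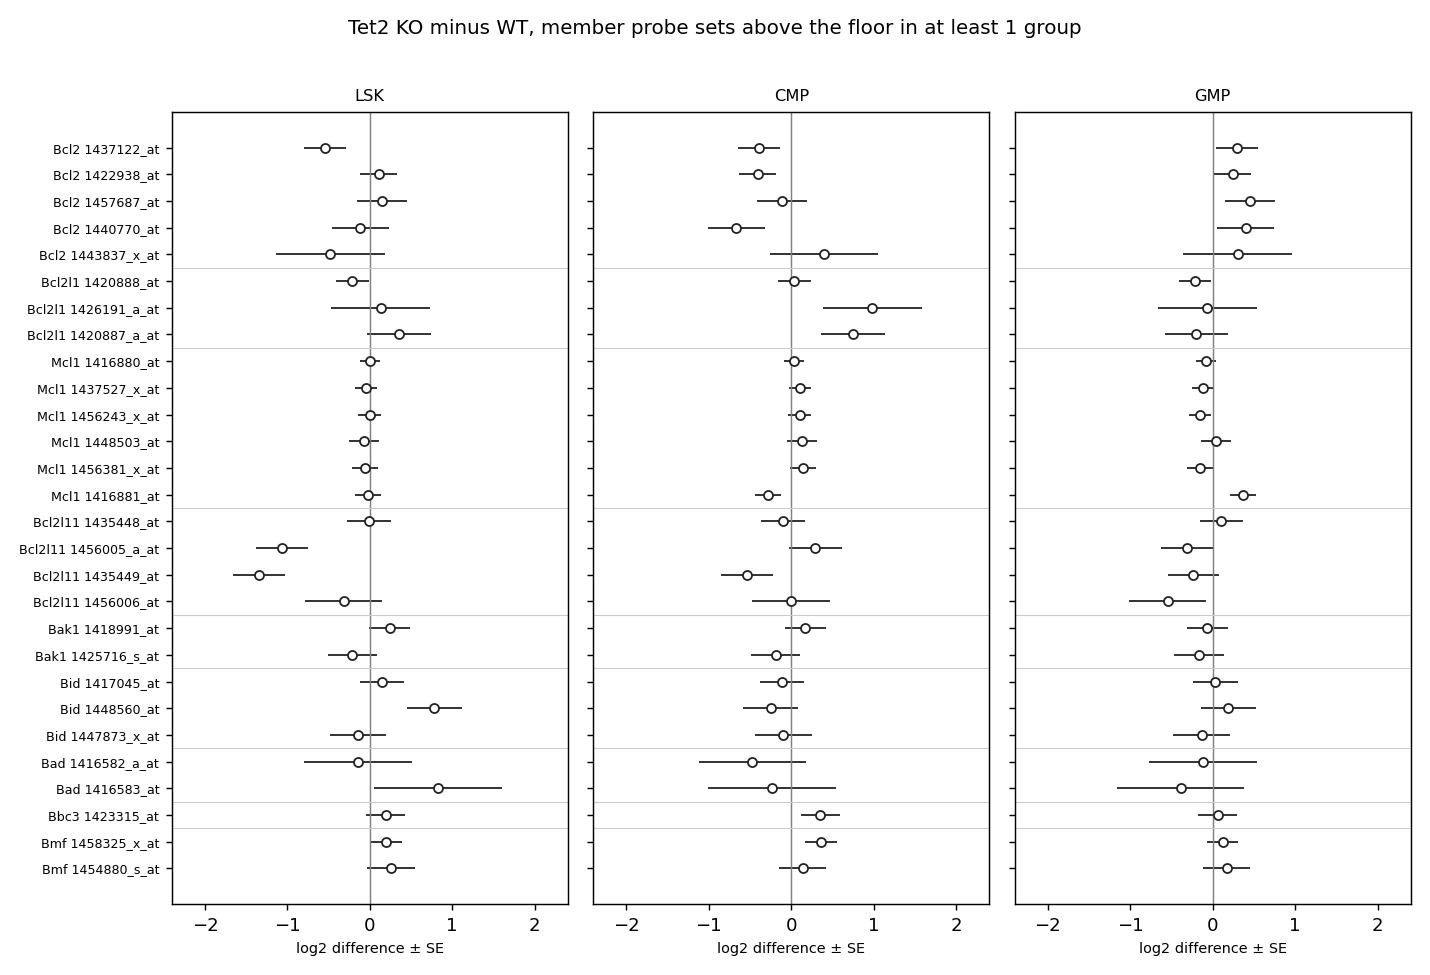
KO minus WT difference (log2, horizontal axis) with its SE for the 28 member probe sets above the floor in at least 1 group, in LSK, CMP and GMP. None passed limma's threshold; the widest differences are those of Bcl2l11 in LSK, at a set (1435449_at) where 1 KO LSK array lay below the floor and at 1456005_a_at, and the 5 brighter Mcl1 sets lie close to 0 in all 3 panels.

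The second comparison followed the family through WT maturation, from LSK to CMP to GMP. The 3 contrasts share WT arrays, so they are not independent of one another. Bcl2 rose from LSK to CMP at 1 of its 5 probe sets, and Bcl2l1 was lower in GMP than in LSK at 1 of 4. No other member probe set passed in any step, and 0 passed from CMP to GMP.

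From LSK to CMP 1 of 31 member probe sets was called (3.23%), beside 0.815% of all probe sets. It was Bcl2 at 1422938_at, with 901 and 543 in WT LSK and 1749 and 1645 in WT CMP. The CMP arrays were clear above the LSK arrays, and the fit gave 1.28 ± 0.23 (SE, n = 2 arrays a group), 2.43-fold, with a limma adjusted p of 0.0422. This call ended in 14 of the 19 alternatives: with only these 2 groups in the fit, and without any single array other than WT LSK replicate 1. At 1457687_at the difference was 1.32 ± 0.30 (adjusted p = 0.115) and at 1437122_at 0.80 ± 0.26 (adjusted p = 0.288). The WT LSK arrays also carried the B cell markers, at 7636 to 11448 against 1209 to 1830 in WT CMP, whose part in the result was not tested.

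From CMP to GMP 0 of 31 passed in limma, beside 0.411% of all probe sets. At an unadjusted p below 0.05 there were 9 member sets, a cutoff to which that share of all probe sets does not apply. The 4 brighter Bcl2 sets were among these, with differences of -1.08 ± 0.26, -1.10 ± 0.23, -1.08 ± 0.30 and -1.30 ± 0.35. Their lowest adjusted p was 0.105, at 1422938_at. Without either WT LSK array, 1 member set was called in this step.

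Between GMP and LSK 1 of 31 was called (3.23%), beside 4.31% of all probe sets, so the share of members was close to the background. Bcl2l1 at 1420888_at differed by -1.12 ± 0.20, 2.17-fold lower in GMP, with an adjusted p of 0.0145. The groups did not overlap, at 143 and 119 in GMP and 277 and 290.2 in LSK. The call ended without WT LSK replicate 1 (-1.15), without WT GMP replicate 2 (-0.99) and with only these 2 groups in the fit. Bid at 1417045_at missed the threshold at 1.14 ± 0.27 (adjusted p = 0.0503), as did Bid at 1448560_at (1.37 ± 0.33, adjusted p = 0.0557) and Bak1 at 1418991_at (0.96 ± 0.25, adjusted p = 0.0713). The count of member sets called was 0 without WT GMP replicate 2, 2 without either WT CMP array and 3 without either array of KO LSK or of KO CMP. The B cell markers summed to 7636 to 11448 in WT LSK and 1099 to 1368 in WT GMP, with 6 of 9 called lower in GMP. Of the mast and basophil markers 5 of 11 were called higher and 1 lower (sums 7191 to 8378 in LSK and 8841 to 9283 in GMP), and of the monocyte markers 3 of 7 were called higher (4306 to 4496 and 6543 to 7408). None of the 7 measured mature neutrophil markers was called. They summed to 17881 to 21099 in WT LSK, 12189 to 16057 in WT CMP and 13197 to 13558 in WT GMP. The part of these lists in these values was not tested.

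**Figure D3:**
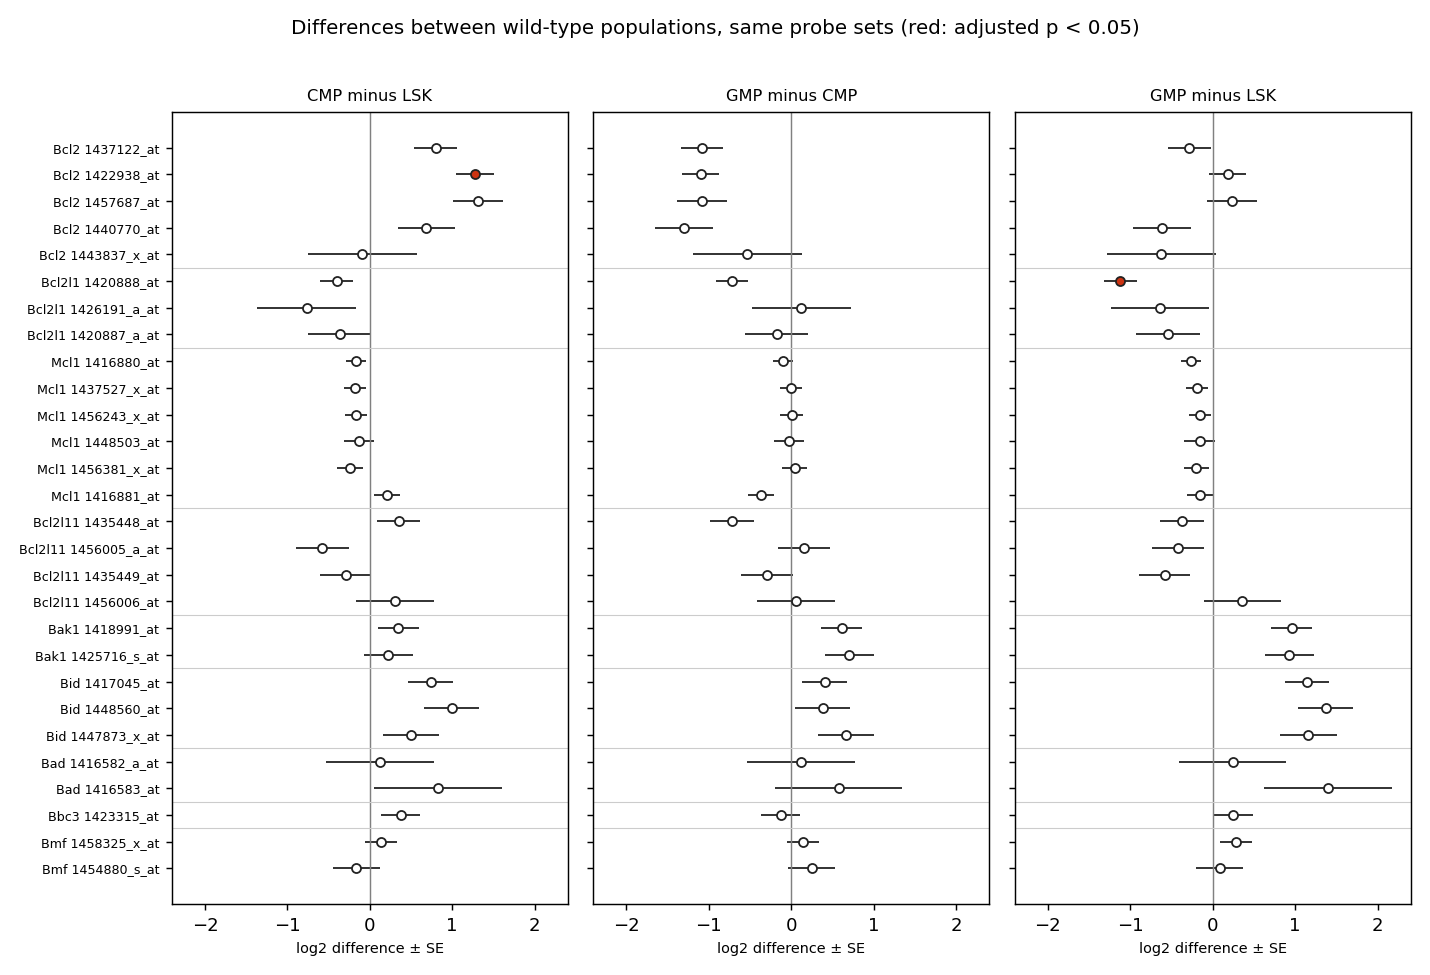
Difference between WT populations (log2, horizontal axis) with its SE for the same 28 probe sets; red points passed limma's threshold. Bcl2 1422938_at is red in CMP minus LSK and Bcl2l1 1420888_at in GMP minus LSK, and the 4 brighter Bcl2 sets lie right of 0 in the first panel and left of it in the second.

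The third comparison set replated KO cells against each sorted KO population. At 1 probe set each, Bcl2, Bmf and Mcl1 were higher after replating in all 3 contrasts, and further Bcl2 sets against KO LSK and KO GMP. Bcl2l1 was higher than in KO CMP and KO GMP and Bbc3 higher than in KO LSK and KO GMP, while Bak1 was lower than in KO GMP. The 3 contrasts share the replated arrays, culture goes with replating, and a large share of the whole array differed. Of all probe sets 19% were called against KO LSK, 18.3% against KO CMP and 19% against KO GMP. Of 12 mast and basophil markers 11 were measured and summed to 85873 to 87835 on the replated arrays and to 7191 to 11190.2 on the sorted ones. Against KO LSK, KO CMP and KO GMP 11, 9 and 9 of them were called higher, and 1 was called lower against KO GMP. Of 8 markers of mature neutrophils 7 were measured and summed to 147.7 to 155.3 on replated arrays, with 4 or 5 of them at or below the floor, and to 12189 to 21099 on sorted arrays. Of 8 monocyte and macrophage markers 7 were measured and summed to 1441 to 1626 on replated arrays, with 4 of them at or below the floor, and to 4593 to 10664 on sorted KO arrays, and 4, 5 and 7 of them were called lower against KO LSK, KO CMP and KO GMP. The 9 B cell markers summed to 188 to 260 on replated arrays, with 5 or 7 of them at or below the floor, and 8, 4 and 4 were called lower. The part of these lists in the differences was not tested. In these bulk samples fewer cells of a type and less RNA per cell cannot be told apart.

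Against KO LSK 8 of 31 member probe sets were called (25.8%), all higher, where 9.35% of all probe sets were higher and 9.66% lower. The median member difference was 0.49, beside 0.03 over all probe sets. Against KO CMP 4 were called (12.9%, below the 18.3% of all probe sets), all higher, where 8.83% of all probe sets were higher and 9.51% lower, and the medians were 0.26 and -0.03. Against KO GMP 11 were called (35.5%), 9 higher and 2 lower, where 8.77% of all probe sets were higher and 10.2% lower, and the medians were 0.38 and -0.02. Counts over probe sets weigh genes with many sets more. In a fit on the brightest probe set of each gene, 3 of the 9 genes were called against KO LSK (33.3%, beside 25% of all genes), 2 against KO CMP (22.2%, beside 24.4%) and 5 against KO GMP (55.6%, beside 25.4%). The shares against KO LSK and KO CMP were thus near the background. The genes called in this fit were Bcl2, Bcl2l1 and Bbc3 against KO LSK, and Bcl2 and Bcl2l1 against KO CMP. Against KO GMP they were Bcl2, Bcl2l1, Mcl1, Bbc3 and Bak1. Among these, Bcl2l1 against KO LSK, Bcl2 against KO CMP and Mcl1 against KO GMP did not pass at the same set in the fit on all probe sets. Groups did not overlap at 20, 20 and 23 of the 31 sets, beside 57.9%, 57.9% and 61.8% of all probe sets. Single arrays moved the counts: against KO LSK 5 were called without replated replicate 1, and against KO GMP 4 without that array, 7 without replated replicate 2 and 6 without KO GMP replicate 1.

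Bcl2, the survival gene, rose against KO LSK at all 5 probe sets. The difference was 1.75 ± 0.26 (SE, n = 2 arrays a group) at 1437122_at, 3.36-fold, with an adjusted p of 0.00136. At 1440770_at it was 2.60 ± 0.35 (adjusted p = 0.000763), and at 1422938_at, the smallest, 1.05 ± 0.23 (adjusted p = 0.0103), a call that ended without replated replicate 1. Against KO GMP 4 of the 5 sets rose, with 1.20 ± 0.26 at 1437122_at (adjusted p = 0.0103). Against KO CMP only 1440770_at did, by 2.46 ± 0.35 (adjusted p = 0.00107), while 1437122_at differed by 0.80 ± 0.26 (adjusted p = 0.0644) and 1422938_at by 0.29 ± 0.23 (adjusted p = 0.487). In the fit on the brightest probe set of each gene, 1437122_at was called against KO CMP. The calls at 1440770_at held in all 19 alternatives of each contrast. At 1443837_x_at the call against KO LSK ended without any one array of the pair, and that against KO GMP without replated replicate 1 or 2 or KO GMP replicate 1, among others. Against KO GMP the calls at 1437122_at and 1457687_at ended without KO GMP replicate 1 and without replated replicate 1.

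Bcl2l1, which encodes BCL-XL, rose at 1420888_at against KO GMP and KO CMP. The difference was 1.77 ± 0.20 against KO GMP, 3.4-fold (adjusted p = 0.000239), and 0.79 ± 0.20 against KO CMP (adjusted p = 0.0212). Against KO LSK it was 0.64 ± 0.20, which missed the threshold at an adjusted p of 0.0515. In the fit on the brightest probe set of each gene, Bcl2l1 was called against KO LSK. The 2 replated arrays agree to within 1 intensity unit and lie above all 12 sorted arrays. The call against KO CMP ended without KO CMP replicate 1 (0.64), without either replated array (0.79 in both cases) and with only these groups in the fit. At 1420887_a_at the difference from KO GMP was 1.75 ± 0.39 (adjusted p = 0.0115), a call that ended without KO GMP replicate 2 and without replated replicate 1.

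Mcl1 was called at 1 of its 6 probe sets in the fit on all probe sets. The dimmest, 1416881_at, rose by 1.30 ± 0.16 against KO LSK (adjusted p = 0.000457), 1.35 ± 0.16 against KO CMP (adjusted p = 0.000372) and 1.06 ± 0.16 against KO GMP (adjusted p = 0.00143). These calls held in all 19 alternatives of each contrast. At the brightest set, 1416880_at, the differences were 0.02 ± 0.12, 0.15 ± 0.12 and 0.37 ± 0.12, and none passed. All 6 sets had their highest group mean after replating. At 1448503_at both replated arrays, at 3655 and 4597, lay above the highest sorted array, at 3570. The probe sets of Mcl1 thus shared a direction but differed in size, and only 1416881_at was called in the fit on all probe sets. In the fit on the brightest probe set of each gene, Mcl1 at 1416880_at was called higher against KO GMP.

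Of the BH3-only genes, Bmf and Bbc3 rose. Bmf at 1454880_s_at rose by 1.90 ± 0.29 against KO LSK, 3.74-fold (adjusted p = 0.00155), by 2.18 ± 0.29 against KO CMP (adjusted p = 0.000702) and by 1.91 ± 0.29 against KO GMP (adjusted p = 0.00145). At the brighter 1458325_x_at the Bmf differences were 0.43 ± 0.19, 0.12 ± 0.19 and 0.22 ± 0.19, and none passed, so the size differed between Bmf sets as well. Bbc3 rose by 0.97 ± 0.24 against KO LSK (adjusted p = 0.0193) and 0.86 ± 0.24 against KO GMP (adjusted p = 0.0334), and differed by 0.44 ± 0.24 from KO CMP (adjusted p = 0.276). Both Bbc3 calls ended without either replated array, the first also without KO LSK replicate 1 and with only these groups in the fit, the second without either array of KO GMP or of WT CMP. Bcl2l11, Bid and Bad were called at 0 of their 10 sets in the 3 contrasts.

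Bak1, the pore former, was lower after replating than in KO GMP at both probe sets. At 1418991_at the difference was -0.87 ± 0.25, 1.83-fold lower (adjusted p = 0.038), and at 1425716_s_at it was -1.11 ± 0.30 (adjusted p = 0.0289). The call at 1425716_s_at ended without KO GMP replicate 1 and without either replated array, and that at 1418991_at ended in 11 of 20 alternatives, among them the loss of either replated or KO GMP array. Against KO LSK the differences were -0.22 ± 0.25 and -0.14 ± 0.30, and neither passed. At 1418991_at 1 of the 2 replated arrays lay within the range of the LSK arrays and the other below it.

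**Figure D4:**
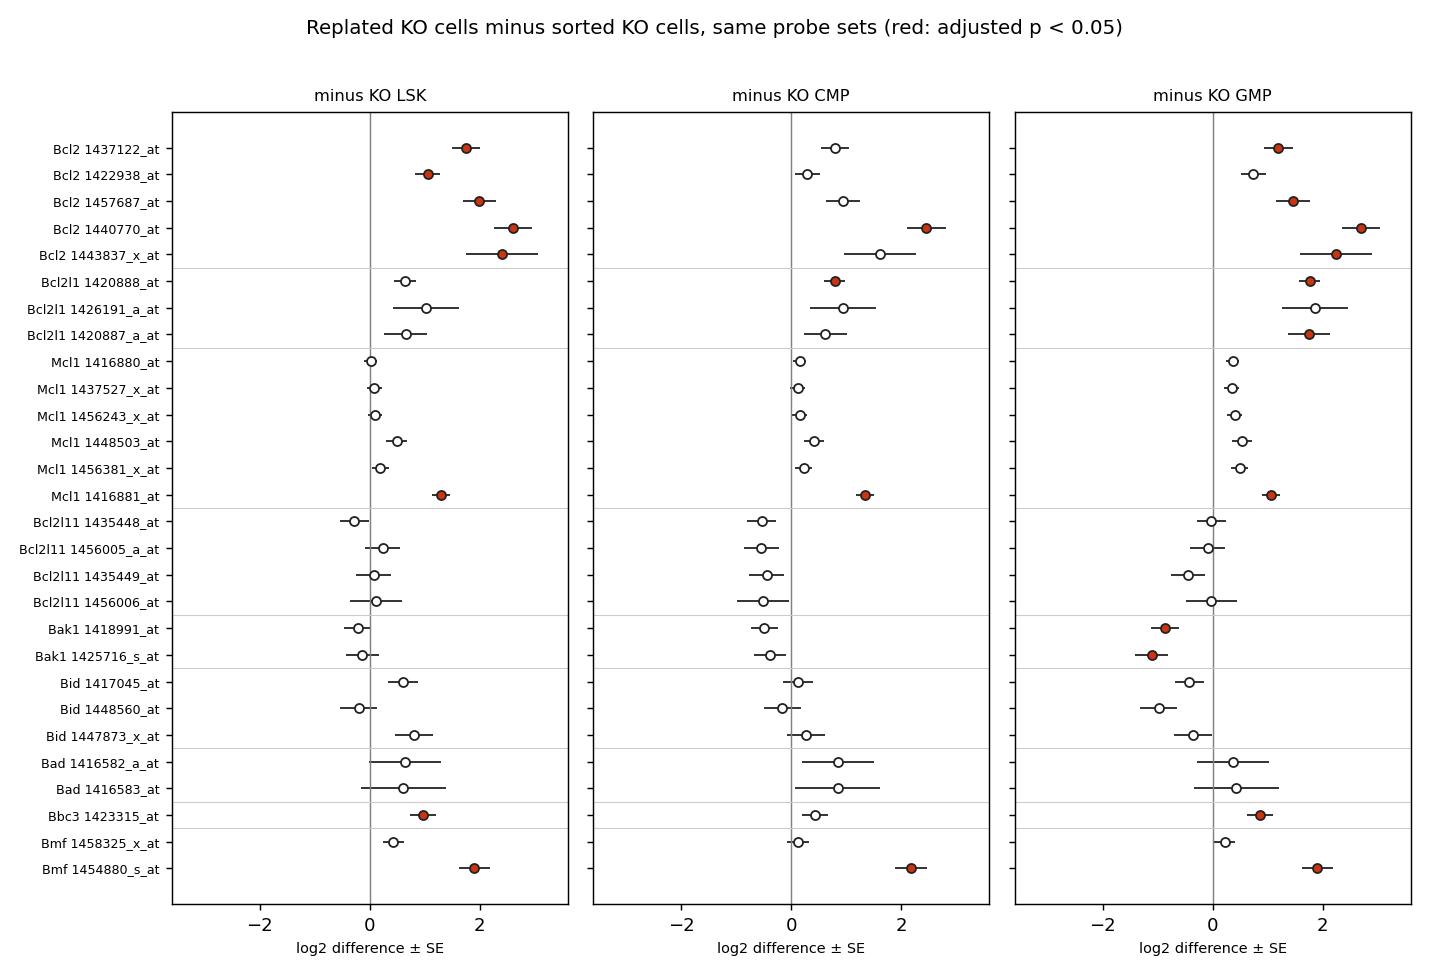
Replated KO minus sorted KO difference (log2, horizontal axis) with its SE for the same 28 probe sets; red points passed limma's threshold. All 5 Bcl2 sets are red against KO LSK, 1 of 6 Mcl1 sets is red in every panel, and both Bak1 sets are red and left of 0 against KO GMP.

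**Figure D5:**
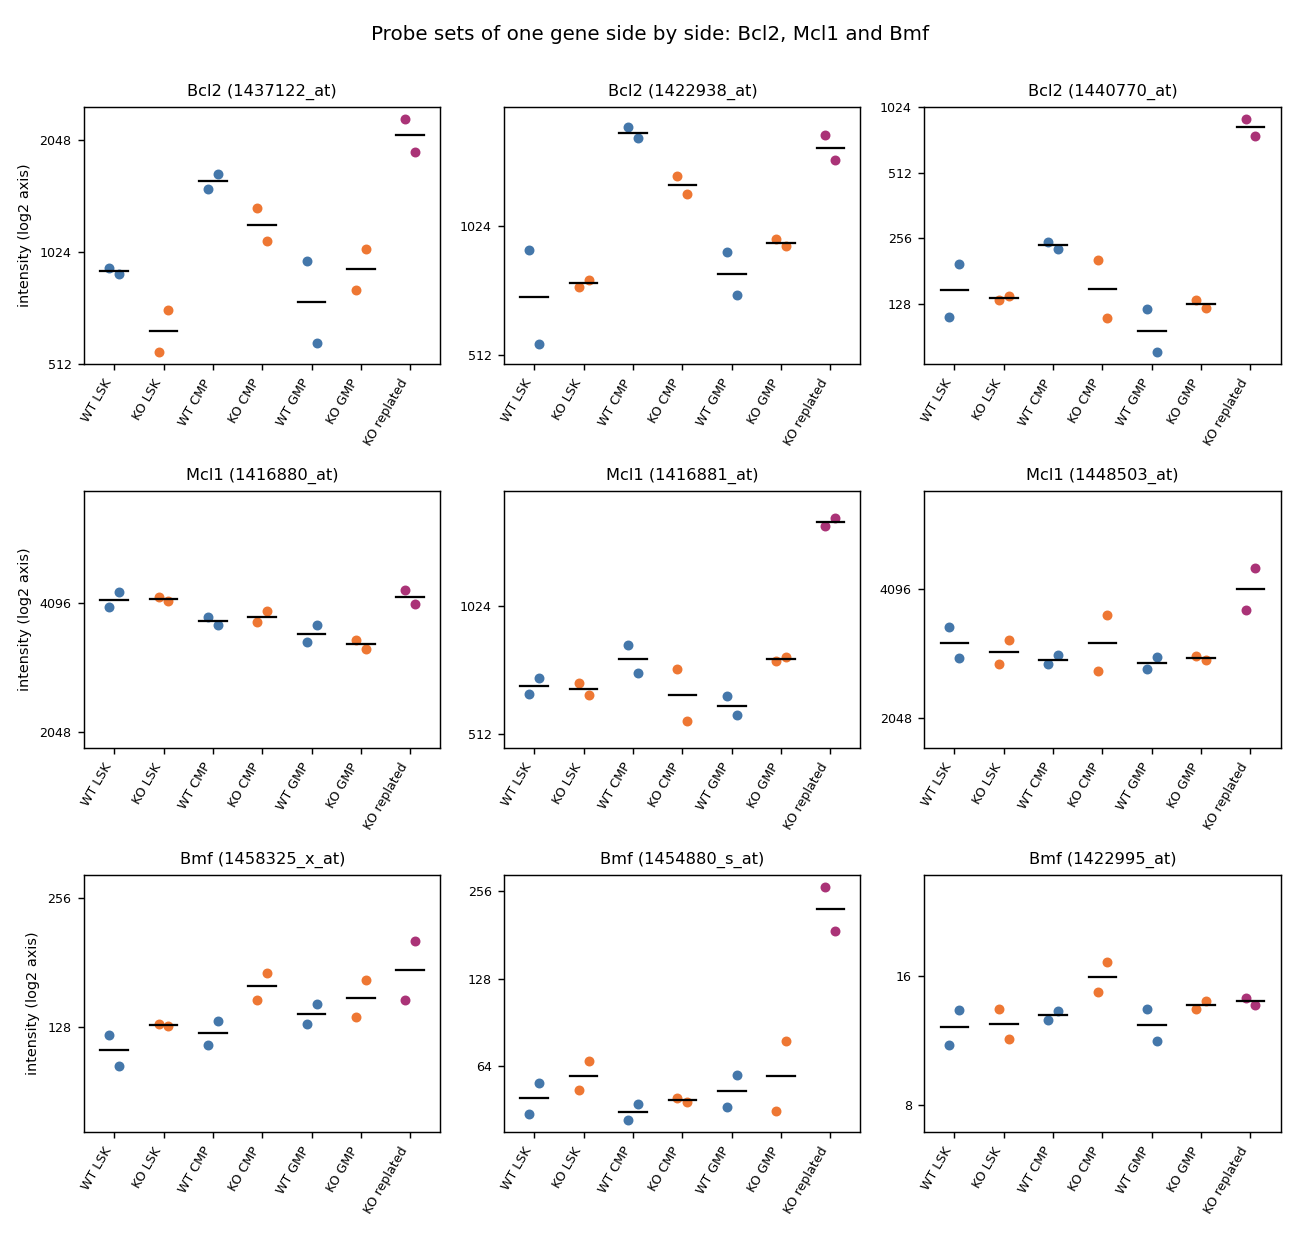
Intensity (log2 axis) of 3 probe sets each of Bcl2, Mcl1 and Bmf on 14 arrays, with points as arrays and bars as group means of log2 values. Replated arrays stand apart at Bcl2 1440770_at, Mcl1 1416881_at and Bmf 1454880_s_at, and at the brightest Mcl1 set they lie close to the LSK arrays.

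Genes around the family were counted from 4 lists: other BCL2 family genes (11 of 15 measured), the mitochondrial pathway downstream (18 of 20), the death receptor arm (9 of 10) and regulators of the family (18 of 19), each gene by its brightest probe set. In KO against WT 0 genes of these lists were called by limma, averaged or in any population, beside 0.242% of 18193 genes in the average and in LSK, 0.11% in CMP and 0.0879% in GMP. At an unadjusted p below 0.05 there were 3 of the 56 measured genes in the average, 7 in LSK, 2 in CMP and 2 in GMP. The share of all genes at that cutoff was not counted. The lowest p-values in LSK were those of Stat5b, a cytokine signalling factor, at 0.47 ± 0.12 (adjusted p = 0.214) and Ddit3, the stress factor CHOP, at 1.57 ± 0.49 (adjusted p = 0.307).

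Between WT GMP and WT LSK 2 of these genes rose and 4 fell, beside 2.42% and 3.3% of all genes. Bok, a pore-forming relative of Bak1, fell by 2.25 ± 0.37 on the log2 scale (adjusted p = 0.0103), from 281 and 274.6 on the WT LSK arrays to 60.6 and 55.9 in WT GMP. Tnfsf10, the death ligand TRAIL, fell by 1.45 ± 0.23 (adjusted p = 0.00882). Cycs, the cytochrome c that leaves the mitochondria, rose by 1.04 ± 0.18 (adjusted p = 0.0151), and Dffb, a nuclease of dying cells, by 1.64 ± 0.38 (adjusted p = 0.0453). Pim1 and Foxo3, the kinase and the forkhead factor, were lower in GMP, with differences of -0.62 ± 0.14 and -0.58 ± 0.14, with adjusted p of 0.0391 and 0.0495. Each of these 6 calls ended with only the 2 groups in the fit and without 1 or both of the WT GMP arrays. Of 20 alternatives, the calls of Bok and Tnfsf10 ended in 2 and that of Cycs in 3, but that of Pim1 in 11, of Dffb in 14 and of Foxo3 in 17, the loss of single arrays of other groups among them, and for Dffb and Foxo3 the replicate block. In the other steps 0 genes of the lists were called by limma, beside 1.13% of all genes from LSK to CMP and 0.599% from CMP to GMP. At an unadjusted p below 0.05 there were 8 and 11 in these steps, again without a share of all genes at that cutoff.

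After replating, the genes downstream of mitochondria numbered 2 higher and 5 lower of 18 against KO LSK, 2 and 6 against KO CMP, 2 and 8 against KO GMP. Over all genes 9.93%, 9.48% and 9.33% were higher and 13.2%, 13% and 14% lower. The lower count was 2 against KO LSK without replated replicate 1, and 5 against KO GMP without KO GMP replicate 2 or without replated replicate 2. The median difference of the 18 genes was -0.36, -0.20 and -0.47, beside 0.01, -0.07 and -0.06 over all genes. Casp2, a caspase, fell in the 3 contrasts, by 1.52 ± 0.11 against KO LSK (adjusted p = 1.82e-05), from 2371 and 2425 to 814 and 862. Parp1, a DNA repair enzyme cut by caspases, fell by 1.13 ± 0.11 (adjusted p = 0.000134). Birc3, an inhibitor of apoptosis, rose by 2.07 ± 0.27 (adjusted p = 0.000708) and Casp9, the first caspase of the pathway, by 0.67 ± 0.13 (adjusted p = 0.00609). Against KO CMP and KO GMP Casp2 differed by -1.81 ± 0.11 and -1.59 ± 0.11, and Birc3 rose by 2.43 ± 0.27 and 2.20 ± 0.27. The calls of Casp2, Parp1 and Birc3 held in all 20 alternatives of each contrast. The lower genes against KO CMP included Diablo (-1.27 ± 0.19) and against KO GMP Htra2 (-1.95 ± 0.32), 2 mitochondrial proteins that block inhibitors of apoptosis.

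In the death receptor arm 1 gene was higher and 1 lower against KO LSK, 2 and 1 against KO CMP, 3 and 1 against KO GMP, of 9 measured, with list medians of 0.12, 0.20 and 0.48. Tnfrsf1a, a TNF receptor, was the lower gene each time, at 27.4 and 30.8 on replated arrays against 397 to 604 on the 6 sorted KO arrays. Its differences were -3.94 ± 0.19 against KO LSK, -3.99 ± 0.19 against KO CMP and -4.29 ± 0.19 against KO GMP, with a highest adjusted p of 9.00e-07. Cflar, the inhibitor of the receptor caspase, rose by 0.75 ± 0.20, 0.86 ± 0.20 and 0.84 ± 0.20 (highest adjusted p 0.0311). Fas, a death receptor, was below the floor on both KO CMP arrays and at least 1.84-fold higher after replating (adjusted p = 0.0306). Tnfrsf10b, the TRAIL receptor, was below it on both KO GMP arrays and at least 1.78-fold higher (adjusted p = 0.039), and Tnfsf10 rose by 0.90 ± 0.23 against KO GMP (adjusted p = 0.0227). The Tnfrsf1a calls held in all 20 alternatives, while the calls of Cflar and Fas ended in 4 alternatives of each contrast, with either replated array left out among them. The call of Tnfrsf10b ended in 12 of 20, the offset of 16, the replicate block and the loss of WT arrays among them, and that of Tnfsf10 without either KO GMP array and without replated replicate 2. The count of higher genes in this list was 0 without either KO CMP or either replated array against KO CMP, without either KO GMP array or replated replicate 2 against KO GMP, and without KO LSK replicate 1 or either replated array against KO LSK.

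Among regulators of the family 3, 3 and 8 of 18 were higher against KO LSK, KO CMP and KO GMP and 1 lower each time, with list medians of 0.22, 0.30 and 0.51. Bag3, a co-chaperone that binds BCL2, rose by 3.03 ± 0.40 against KO LSK, 8.19-fold (adjusted p = 0.000753), from 61.4 and 80.4 to 548.2 and 604. Pim1, a survival kinase that phosphorylates BAD, rose by 0.52 ± 0.14, 0.80 ± 0.14 and 1.28 ± 0.14 in the same order (highest adjusted p 0.0288). Mdm2, the p53 inhibitor, rose by 0.58 ± 0.17, 0.72 ± 0.17 and 0.63 ± 0.17 (highest adjusted p 0.0397). Akt1, another kinase that phosphorylates BAD, was the lower gene, with differences of -0.61 ± 0.14, -0.57 ± 0.14 and -0.48 ± 0.14. Against KO GMP Stat5a and Foxo3 also rose, by 0.55 ± 0.11 and 0.61 ± 0.14 (adjusted p = 0.00815 and 0.0121). The count of higher regulators was 1 against KO LSK without either replated array, and against KO GMP it was 2 without KO GMP replicate 2, 4 without replated replicate 1 and 3 without replated replicate 2. The Akt1 and Mdm2 calls, and that of Pim1 against KO LSK, ended without either replated array, those of Stat5a and Foxo3 without KO GMP replicate 2, and that of Foxo3 also without replated replicate 2. The Mdm2 call against KO LSK ended in 12 of 20 alternatives and the Akt1 call against KO GMP in 8.

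Among the other BCL2 family genes, Pmaip1 (NOXA, a BH3-only gene) rose against KO LSK by 2.62 ± 0.53 (adjusted p = 0.00773), from 98.2 and 51.7 to 408 and 468, a call that ended without replated replicate 2. Bok fell by 2.51 ± 0.37 (adjusted p = 0.00127). Bcl2l12 was lower, by log2 differences of -1.98 ± 0.39 against KO LSK, -2.30 ± 0.39 against KO CMP and -2.39 ± 0.39 against KO GMP (highest adjusted p 0.00699). Of the 11 measured, these were the called genes: 1 higher and 2 lower against KO LSK, and 1 lower against each of the other two. The list medians were 0.21, -0.23 and -0.08.

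By the range of group means at each gene's brightest probe set, Bcl2l1 was the widest survival gene (1.77 on the log2 scale, with Bcl2 at 1.75) and Bid the widest death gene (1.18), though other sets of Bcl2 and Bmf ranged wider. For these 2 the genes with the most similar profile over the 14 arrays were looked up among 18192 genes. They were Ctla2a (Pearson r 0.964), Pim1 (0.956) and Camk1d (0.952) for Bcl2l1, and Recql (0.922), Tnnt1 (0.903) and Rpn1 (0.900) for Bid. These are descriptions over 14 arrays of 7 groups, replated cells included.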

How the data were processed

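RNA of 14 samples was amplified from 5 ng and hybridised to Affymetrix mouse arrays, 1 array a sample. The authors deposited RMA values, per the submitters' processing notes, which give no version. The deposited values are intensities on a linear scale with array medians of 31.2 to 33.0, so log2 was taken before any test. The number of arrays limits the precision.

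Of 45101 probe sets, 64 platform controls were left out and 45037 tested. The platform annotation gives 34958 probe sets 1 gene, 932 several, and does not list 9211, and no name was taken from a probe set with several. Of the gene IDs, 34754 matched the RefSeq table of GRCm38.p6, and 0 symbols changed. The floor of an array is the highest of its 27 bacterial control probe sets.

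All arrays entered 1 fit in limma 3.58.1 (R 4.3.3) with a mean per group, 7 residual degrees of freedom and Benjamini-Hochberg adjustment over all probe sets, with calls at an adjusted p below 0.05. The fit was tested on simulated data. Arrays of a group correlated at r between 0.9612 and 0.9928, and none were identical. Every member probe set is accounted for, and the one with the highest mean stands for its gene. From each pathway list up to 4 called genes with the smallest p are named per comparison, or, where none was called, up to 2 as values. Genes of the most similar profile were ranked by Pearson r. Members and lists were chosen with earlier results of these data known.

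Alternatives were the brightest probe set per gene, quantile normalization, an offset of 16, leaving out dim probe sets, a fit of only the groups compared, the replicate number as a block, and leaving out each array.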

Additional observations from a re-analysis of the deposited data

How the results depend on the processing

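No difference changed direction where it had been called. KO against WT and the tests between populations gave 0 member probe sets under every alternative. Counting the brightest probe set of each of 9 genes changed the member counts from 8 to 3 (replated against KO LSK), from 4 to 2 (KO CMP), from 11 to 5 (KO GMP), from 1 to 0 (WT CMP against LSK) and from 1 to 3 (WT GMP against LSK), where fewer sets are tested. With only the groups compared in the fit, both WT counts of 1 became 0. For WT GMP against LSK, leaving out dim sets, quantile normalization and the replicate block each gave 3, and an offset of 16 gave 2. The cause of these changes was not tested. Leaving out 1 array gave 5 to 9 sets against KO LSK, 3 to 5 against KO CMP, 4 to 12 against KO GMP, 0 to 1 for WT CMP against LSK and for WT GMP against CMP, and 0 to 3 for WT GMP against LSK. A group left with 1 array was assumed to vary like the others. Over 21 pairs of groups, deviations of same-numbered arrays correlated between -0.0782 and 0.0749, so no shared effect of the replicate number showed. Whether same-numbered arrays share animals or a run is not labelled, and these correlations cannot decide it. The replicate block moved no other member count by over 1.5 times. Of 28 member sets with signal, 1435449_at, 1456006_at and 1447873_x_at lay below the floor on single arrays, where their differences are less certain, and 2 arrays a group limit the precision.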
